A study of Mus musculus with 6 samples.

Results

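The comparison set the marrow of a mouse leukaemia with Shp-1 deleted and treated with chemotherapy against the marrow of the same kind of leukaemia with Shp-1 kept and given buffer. The leukaemia is labelled MA9, an acute myeloid leukaemia model made with the MLL-AF9 fusion gene. Shp-1 is the phosphatase encoded by Ptpn6. The control library is labelled Shp-1 f/f (the gene flanked by sites for deletion but kept) with PBS, and the other Shp-1 Δ/Δ with AraC and Dox, which are cytarabine and presumably doxorubicin, a name the labels do not spell out. They are called the f/f PBS and the deleted chemotherapy library below. These are 2 of the 6 libraries of the series, and 1 library stands on each side. They were chosen as the MA9 pair whose labels agree in direction with their Ptpn6 level. In the other 2 MA9 libraries, labelled Δ/Δ PBS and f/f AraC + Dox, Ptpn6 went against the label. Genotype and drug differ together in the pair, so their parts cannot be told apart.

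Per the labels, marrow was flushed from leukaemic mice, red cells were lysed and 3′ single-cell libraries were made. All libraries share this preparation, and the leukaemias were made by putting the fusion gene into what the labels call mouse embryonic stem cells. The age and number of mice, the doses, the time after treatment, the driver of the deletion and the deleted exons are not given in the sources used here. A barcode was kept as a cell when it had 500 genes or more and no more than 10% of its UMIs were mitochondrial. This left 8614 of 9090 barcodes (94.8%) with f/f PBS and 9446 of 10748 (87.9%) with deletion and chemotherapy. They held 64966638 and 103581646 UMIs, at medians of 6675 and 10112.5 UMIs per cell. The libraries shared 24 kept barcodes, against 18 to 27 for the other pairs of MA9 libraries. UMIs were summed over kept cells and scaled to CPM (UMIs of a gene per 1000000 UMIs). With 1 library a side there is no replicate check and no test. Intervals are exact 95% intervals that cover counting error only, and a 2-fold difference is a rule of size. In sums over a library, fewer cells of a type and less RNA per cell cannot be told apart.

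Shp-1 is a tyrosine phosphatase of blood cells that is recruited by inhibitory receptors and damps signals from cytokine and antigen receptors. Pfkp is the platelet-type phosphofructokinase, a subunit form of the enzyme that commits glucose to glycolysis, and the series title joins both in one axis. MLL-AF9 drives a myeloid leukaemia that keeps HOX genes on and stalls cells at a stage close to granulocyte-monocyte progenitors. Cytarabine stops DNA synthesis after it is built into DNA, and anthracyclines such as doxorubicin damage DNA through topoisomerase II.

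Ptpn6, which was used to choose the pair and is therefore only described, stood at 186 CPM with f/f PBS and 43.6 CPM with deletion and chemotherapy (log2 ratio -2.09, interval -2.14 to -2.04). The gene lies on chromosome 6 (GRCm38 124720707 to 124738714, minus strand). A 3′ count does not show whether the transcript that remains spans the deleted part. For thinned shares each cell was cut to 2000 UMIs, which left out 664 and 1234 shallower cells and kept 7950 and 8212. Thinned to 2000 UMIs, 32.2% (31.1 to 33.2) of f/f PBS cells and 8.26% (7.67 to 8.87) of deleted chemotherapy cells held a Ptpn6 UMI. Unthinned, over all kept cells, the shares were 66.9% and 32.9%. Pfkp was at 32.1 and 63.1 CPM (log2 0.98, 0.91 to 1.05), a 1.97-fold difference that falls just short of 2-fold. Thinned shares of cells with a Pfkp UMI were 5.81% (5.31 to 6.35) and 11.96% (11.3 to 12.7), and the unthinned shares were 19.7% and 42.8%. In T cell-like cells the thinned Pfkp shares were 26.8% and 22.9%, at median depths of 3115.5 and 2636 UMIs, so T cells are no background for it.

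Ptpn6 was lower in each of 3 myeloid classes, and its interval in T cell-like cells includes 0. Its log2 ratio was -1.95 (-2.22 to -1.70) in neutrophil-like, -2.78 (-2.98 to -2.59) in monocyte-like and -2.55 (-2.93 to -2.17) in conventional dendritic cell-like cells, against 0.50 (-0.23 to 1.31) in T cell-like cells. In neutrophil-like cells Ptpn6 was at 196 CPM (191 to 202) with f/f PBS and 50.8 CPM (42.4 to 60.5) with deletion and chemotherapy. The second value mixes mainly 2 clusters described below. Ptpn6 was at 119 CPM (89.4 to 155) in the 164 cells of cluster 22. It was at 31.3 CPM (23.1 to 41.5) in the 54 deeper cells of cluster 26, whose name is weak. Monocyte-like cells had 233 CPM (215 to 252) and 33.9 CPM (30.3 to 37.7). Conventional dendritic cell-like cells had 298 CPM (244 to 360) and 50.7 CPM (42.4 to 60.2). Since Ptpn6 chose the pair, these levels are a description and support nothing. In T cell-like cells the levels were 77.4 CPM (45.9 to 122) from 18 UMIs and 109.5 CPM (90.2 to 132) from 112 UMIs. In B cell-like cells they were 286 CPM (190 to 413; 36 cells) and 362 CPM (314 to 414; 432 cells), and in macrophage-like cells 243 CPM (152 to 368; 18 cells) and 188 CPM (118 to 284; 38 cells). The intervals of these last 3 classes overlap. The difference between classes was not tested.

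**Figure D1:**
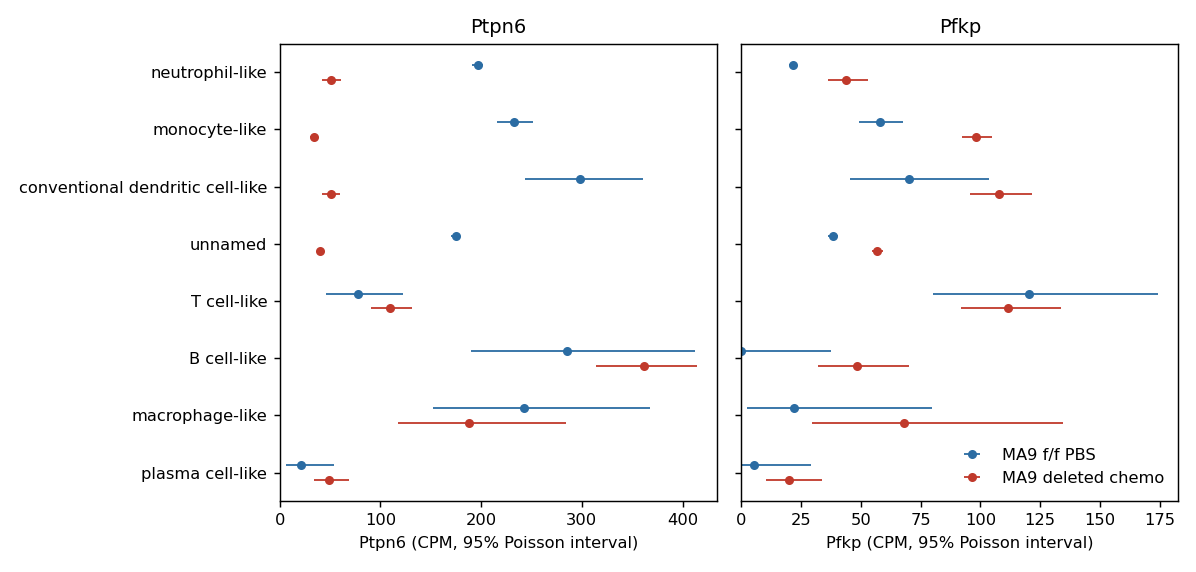
Ptpn6 (left) and Pfkp (right) in CPM for 8 classes of cells, f/f PBS in blue and deleted chemotherapy in red, with exact 95% Poisson intervals. Ptpn6, which chose the pair, is at 196 and 50.8 CPM in neutrophil-like and 233 and 33.9 CPM in monocyte-like cells, and its intervals overlap in T cell-like and B cell-like cells.

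Pfkp was higher with deletion and chemotherapy in the 3 myeloid classes with at least 50 cells in each library. Neutrophil-like cells had a log2 ratio of 1.02 (0.71 to 1.32), monocyte-like cells 0.76 (0.52 to 1.01) and conventional dendritic cell-like cells 0.62 (0.03 to 1.27). The ratio among T cell-like cells was -0.11 (-0.72 to 0.54). Other regulators of this step did not share one direction. Of 6 measured phosphofructokinase genes and regulators, 4 were at least 25% higher and 2 lower by the same ratio, the measure used for every list here. Over all 9341 genes at 5 CPM or more, the level for a list, 31.1% were higher and 24.3% lower by that measure, at a median of 0.06. The liver-type subunit Pfkl had 24.7 and 38.0 CPM (log2 0.62), fructose bisphosphatase Fbp1 18.5 and 24.3 CPM (0.39), and Pfkfb3, which makes the activator of phosphofructokinase, 26.1 and 20.6 CPM (-0.34).

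Over all genes, 6110 reached 20 CPM in either library. Of these, 310 (5.07%) passed 2-fold upward with deletion and chemotherapy and 344 (5.63%) passed it downward, and 39 and 70 passed 4-fold. Leaving the 50 most abundant genes of each library out of the totals changed the split to 278 higher and 483 lower, 36.5% higher against 47.4%. The median over all genes compared was 0.06 in log2. The counting interval of 5559 of these genes excludes 0, which says nothing of the spread between mice.

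**Figure D2:**
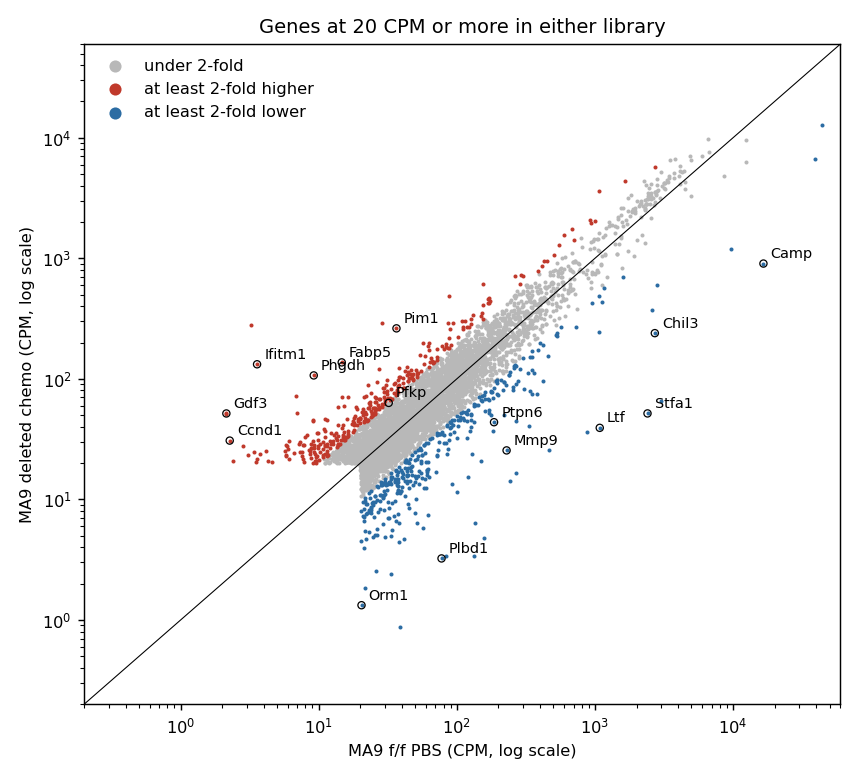
CPM in the f/f PBS library (x) and the deleted chemotherapy library (y), both on log scales, for genes at 20 CPM or more in either and seen in both. Red and blue mark 310 genes higher and 344 lower by at least 2-fold. Camp and Stfa1 lie far under the diagonal and Ifitm1 and Gdf3 far above it.

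Granule genes of maturing neutrophils were much lower with deletion and chemotherapy. Neutrophils load their granules in order: primary granules with Mpo and Elane in promyelocytes, then secondary and tertiary granules with Ltf, Camp and Mmp9 as they mature. Of 25 measured secondary and tertiary granule genes, 0 were higher and 23 lower with deletion and chemotherapy, at a median log2 ratio of -2.13. Primary granule genes went the other way, with 11 of 16 higher and 1 lower (median 0.72). Within classes their median was 1.57 in neutrophil-like, 0.70 in monocyte-like, 1.27 in conventional dendritic cell-like and 2.13 in T cell-like cells. The part of other cells' RNA in these values was not tested.

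In the secondary and tertiary granule list the lactoferrin gene Ltf had 1083 CPM with f/f PBS and 39.2 CPM with deletion and chemotherapy (log2 -4.79). The cathelicidin precursor Camp had 16609 and 904 CPM (-4.199), and the chitinase-like Chil3 2715 and 239 CPM (-3.50). The gelatinase Mmp9 had 229 and 25.5 CPM (-3.17), and the collagenase Mmp8 100.3 and 11.6 CPM (-3.12). Neutrophilic granule protein Ngp had 9653 and 1184 CPM (-3.03), and lipocalin Lcn2 2810 and 602 CPM (-2.22). The surface protein Ly6g, which marks mouse neutrophils, had 92.4 and 13.4 CPM (-2.78). Each of these is a drop by more than 4-fold. Haptoglobin Hp, at 1547 and 1539 CPM, hardly differed (-0.01).

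Of the primary granule genes, the serine protease Ctsg had 1067 and 3649 CPM (log2 1.77). Myeloperoxidase Mpo had 1643 and 4352 CPM (1.41), proteinase Prtn3 2736 and 5697 CPM (1.06), and elastase Elane 3012 and 5172 CPM (0.78). Lysozyme Lyz2 went against the list at 2570 and 372 CPM (-2.79). Lyz2 is made in later myeloid cells and in monocytes as well.

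The cystatin A-like stefins, small inhibitors of cathepsins that sit in 1 cluster on chromosome 16, had the lowest median of the 51 lists. Of 9 measured members 6 were lower and 0 higher (median -4.41). Stfa1 had 2403 and 51.6 CPM, a 46.5-fold drop. Stfa3 had 134 and 3.38 CPM, Stfa2 136 and 6.38 CPM, and Stfa2l1 270.0 and 16.6 CPM. The 6 are near-identical copies, so reads may be split among them by the counting. Cystatins outside that cluster were close to level: Cst3 had a log2 ratio of -0.05, Cst7 0.01 and Cstb 0.31.

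The promoters shown are those of the 3 granule genes with the lowest ratios among the ones that hold the motif below, so they were picked for holding it. Camp, Orm1, Chil3 and Mmp9, whose ratios were lower than those of Mmp8 and Ngp, are not among them. Cebpe, the C/EBP factor that maturing neutrophils need for secondary granules, had 456 and 156 CPM (log2 -1.55). Whether its level bears on the granule genes was not tested. The share of neutrophil-like cells differed too (47.3% and 2.96%). Cebpd had 270 and 129 CPM (-1.07) and Cebpa 25.7 and 20.9 CPM (-0.30). A C/EBP-type motif, TTGCNNAA on either strand, was looked for in the 300 bases from 250 before to 50 after each start, in RefSeq sequences of GRCm38.p6. It was in 9 of the 22 granule genes with an entry (40.9% of them, out of 26 in the list), in 10.3% of 4890 genes compared and in 12.2% of all 27025 genes. A match is a description of letters, not of binding. The motif is in capitals.
Ltf, chr9:111019042-111019341, strand +: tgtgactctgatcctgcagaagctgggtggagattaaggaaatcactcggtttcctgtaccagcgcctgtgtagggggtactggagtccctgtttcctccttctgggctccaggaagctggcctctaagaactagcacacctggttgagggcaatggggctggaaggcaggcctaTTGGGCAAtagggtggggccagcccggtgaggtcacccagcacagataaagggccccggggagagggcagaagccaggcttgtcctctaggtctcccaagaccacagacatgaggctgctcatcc
Mmp8, chr9:7558179-7558478, strand +: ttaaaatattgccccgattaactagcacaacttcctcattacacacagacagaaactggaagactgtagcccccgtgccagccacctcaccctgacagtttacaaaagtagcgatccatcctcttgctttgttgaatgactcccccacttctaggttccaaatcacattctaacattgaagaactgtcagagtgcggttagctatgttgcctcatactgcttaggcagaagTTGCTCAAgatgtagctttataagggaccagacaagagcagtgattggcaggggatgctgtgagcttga
Ngp, chr9:110419558-110419857, strand +: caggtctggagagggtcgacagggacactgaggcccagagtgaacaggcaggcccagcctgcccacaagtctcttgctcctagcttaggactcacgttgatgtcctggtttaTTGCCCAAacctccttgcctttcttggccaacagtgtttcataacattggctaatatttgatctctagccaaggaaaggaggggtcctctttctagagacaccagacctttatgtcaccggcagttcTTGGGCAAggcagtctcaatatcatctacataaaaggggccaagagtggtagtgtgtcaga

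The neutrophil differences stood beside a different mix of cells. Both libraries were clustered together and clusters were named from marker genes. Of 28 clusters, 21 held at least 95% of cells from 1 library, 16123 of 18060 cells in all, so most leukaemic and myeloid clusters may be libraries rather than types. Neutrophil-like cells were 47.3% (46.2 to 48.4) of the f/f PBS library and 2.96% (2.63 to 3.33) of the deleted chemotherapy library. They lay mainly in clusters 3, 6, 7 and 13 in the first and in clusters 22 and 26 in the second. Cluster 26 (54 cells) rests on 3 neutrophil markers, none among its top 10 genes, which include Chit1, Lrg1, Ccng1 and Cdkn1a. Its median depth was 28218 UMIs per cell, against 2590 in cluster 22. Summed values for neutrophil-like cells of the deleted chemotherapy library therefore lean on cluster 26 more than its cell number shows. A granulocyte-monocyte progenitor-like cluster held 1825 cells of the deleted chemotherapy library and 9 of the other. Its top 10 genes begin with Mt2 and Fkbp11 and include Ctsg, Mpo and Elane. Haematopoietic stem and progenitor-like cells lay in clusters 2 and 19. Cluster 2 (1494 of the deleted chemotherapy cells) was led by Clec10a, Bcl11a and Lgmn, then Flt3 and Sox4. It had 3 stem and progenitor markers at least 2-fold higher than other cells. For monocytes it had 5 such markers and for plasmacytoid dendritic cells 4, so its name is weak. Gata2 was among the leading genes of cluster 19 only (250 of those cells). Both clusters together were 18.5% (17.7 to 19.3) of the deleted chemotherapy library and 0.221% (0.133 to 0.344) of f/f PBS. That contrast rests on where clusters were drawn: with doublets removed the shares were 19.7% and 17.6%, at a Leiden resolution of 1.5 they were 20.9% and 6.87%, and at 0.5 no cluster took the name. Cells left without a name were 36.3% and 44.4%.

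Within neutrophil-like cells the secondary and tertiary granule list had a median of -0.17, with 6 of 23 members higher and 10 lower, where 2933 genes measured in that class had a median of 0.05, with 863 higher and 657 lower. The background for other classes was 1000 higher and 1246 lower of 3530 genes in monocyte-like cells, 1205 and 975 of 3644 in conventional dendritic cell-like cells, and 997 and 1019 of 3311 in T cell-like cells. Camp was still lower in neutrophil-like cells (log2 -3.28, -3.31 to -3.25), as were Ltf (-2.07) and Stfa1 (-2.87). Mmp9 and Mmp8 were not: they had 0.27 (0.20 to 0.35) and 0.32 (0.21 to 0.43). The stage within the class differed too: of 9 mature neutrophil markers 6 were higher (median 1.07), and of 9 immature ones 6 were lower (-1.33). Camp UMIs were also found outside the class. Neutrophil-like cells held 92.1% of them in the f/f PBS library but only 9.80% in the deleted chemotherapy library. Cells without a name held 88.5% of them in the deleted chemotherapy library. The ratio within the class therefore leaves out most Camp UMIs of that library. In the f/f PBS library Camp was at 160 CPM in monocyte-like, 194 CPM in conventional dendritic cell-like and 275 CPM in B cell-like cells, but at 3515 CPM in T cell-like cells, from 817 UMIs in 35 of 66 cells. In T cell-like cells of the other library it was at 27.4 CPM. The part of free RNA or doublets was not tested. Among cells that reached 2000 UMIs, thinned to that depth, 64.2% of f/f PBS cells and 32.1% of their T cell-like cells held a Camp UMI. The same shares with deletion and chemotherapy were 11.8% and 4%, and unthinned they were 79.5% and 53.03%, then 22.4% and 10.2%.

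**Figure D3:**
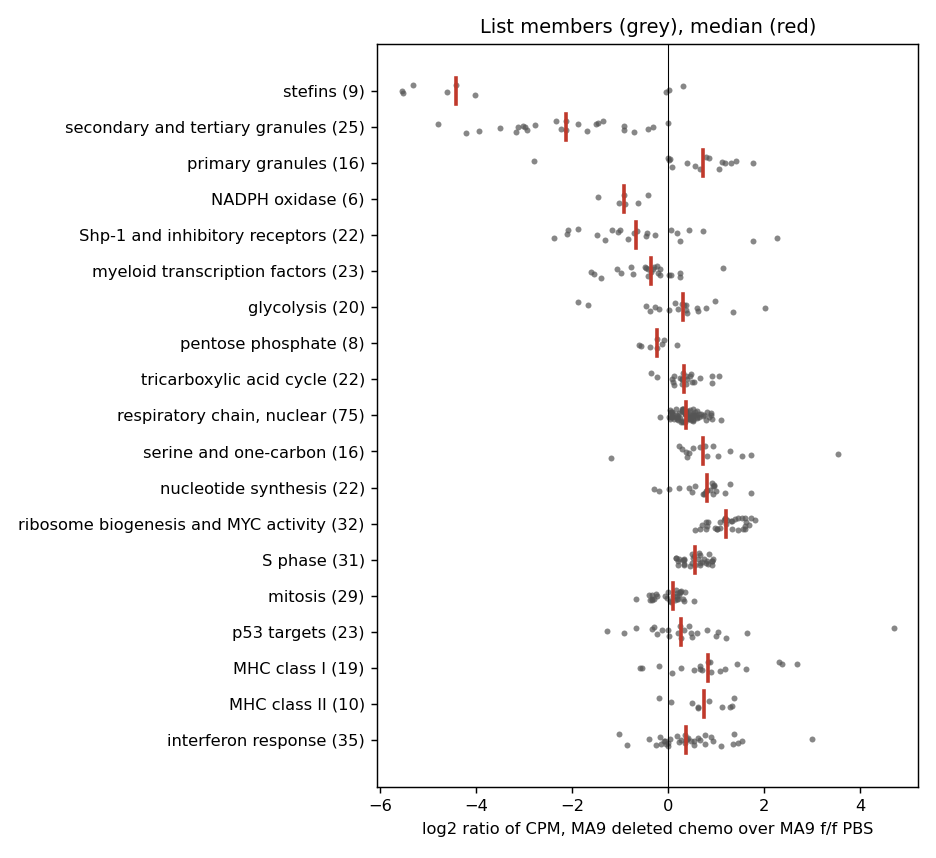
Log2 ratio of CPM, deleted chemotherapy over f/f PBS, for the members (grey points) of 19 gene lists at 5 CPM or more, with the number of members in brackets and the median in red. Stefins (-4.41) and secondary granules (-2.13) lie to the left, and ribosome biogenesis (1.21) lies to the right with every member above 0.

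The oxidase that gives neutrophils their respiratory burst was lower in all 6 of its measured genes (median -0.91). The catalytic subunit Cybb had 732 and 267 CPM (log2 -1.46), and the subunits Ncf4 and Ncf1 had -1.02 and -0.64. Of 23 myeloid transcription factors 12 were lower and 1 higher (median -0.36). Id1 had 71.6 and 23.4 CPM (-1.61) and Id2 118 and 44.5 CPM (-1.41). Spi1, the master factor PU.1, had 428 and 314 CPM (-0.45), and Irf8, which steers cells to monocytes, 150.0 and 177 CPM (0.24).

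Genes tied to Shp-1, most of them inhibitory receptors, were mostly lower. Of 22 measured genes in this list, 14 were lower and 4 higher (median -0.67). The 14 include Ptpn6, which chose the pair, and the cytokine receptor Kit. The list also holds the cytokine receptor genes Csf2rb and Csf2rb2 and the phosphatase gene Ptpn11, so the count is not of inhibitory receptors alone. Siglece had 26.2 and 5.04 CPM (log2 -2.38), Clec4a2 341 and 78.7 CPM (-2.11), Ceacam1 117 and 32.1 CPM (-1.87), and Pirb 71.5 and 35.5 CPM (-1.01). Pecam1 went the other way at 66.7 and 109.7 CPM (0.72). The sister phosphatase Ptpn11, which encodes Shp-2, had 49.1 and 51.3 CPM (0.06). Many of these receptors are made by mature myeloid cells. The part of the cell mix in these values was not tested. Within monocyte-like cells the list had a median of -0.96, and within neutrophil-like cells 0.38, so its direction was not the same in both classes.

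Genes for building ribosomes were higher as a whole list. All 32 measured genes of ribosome biogenesis and MYC activity were higher, 24 of them by at least 2-fold (median 1.21). Spermidine synthase Srm had 56.6 and 198 CPM (log2 1.81), Cad, which starts pyrimidine synthesis, 11.1 and 36.9 CPM (1.74), and the nucleolar Nolc1 62.3 and 200.1 CPM (1.68). Nucleostemin Gnl3 had 61.4 and 187 CPM (1.60), and nucleolin Ncl 593 and 1555 CPM (1.39). Myc itself had 34.9 and 75.9 CPM (1.12). The list was higher within monocyte-like cells (median 1.59, 23 of 23 higher), neutrophil-like cells (0.41, 8 of 12) and T cell-like cells (0.60, 17 of 21), while the median over all genes in those classes was -0.05, 0.05 and -0.01. In conventional dendritic cell-like cells 7 of 16 were higher and 3 lower (0.30), against 0.05 over all genes. Monocyte-like cells came from cluster 8 with deletion and chemotherapy (859 cells) and cluster 15 with f/f PBS (432 cells).

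Feeder pathways of cell growth were higher beside it. Of 22 nucleotide synthesis genes 18 were higher and 0 lower (median 0.81), with the purine enzymes Pfas at 1.29 and Gart at 1.19. Of 16 genes of serine and one-carbon metabolism 13 were higher and 1 lower (median 0.72). Phgdh, the entry enzyme of serine synthesis, had 9.19 and 106.7 CPM, an 11.6-fold difference (log2 3.54, 3.42 to 3.66). Shmt2 had 21.9 and 72.5 CPM (1.73) and Psat1 29.3 and 84.6 CPM (1.53). Phgdh was higher in neutrophil-like (5.28), monocyte-like (4.04) and T cell-like cells (1.39) alike. In neutrophil-like cells the list as a whole was not: 1 of 4 measured members was higher and 3 lower.

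Energy genes differed by less. In glycolysis 10 of 20 measured genes were higher and 4 lower (median 0.31). Enolase Eno1 had 132 and 338 CPM (log2 1.36), the monocarboxylate carrier Slc16a1 5.76 and 23.5 CPM (2.03), and lactate dehydrogenase Ldha 342 and 594 CPM (0.80). The glucose carrier Slc2a3 went against them at 48.2 and 13.04 CPM (-1.89), as did the lactate exporter Slc16a3 at 49.98 and 36.4 CPM (-0.46) and Gpi1 at 897 and 687 CPM (-0.39). Glycolysis was higher within neutrophil-like (0.42), monocyte-like (0.72) and conventional dendritic cell-like cells (0.73), and also within T cell-like cells (0.63). Of 8 pentose phosphate genes 0 were higher and 3 lower (median -0.23), among them Rpia (-0.61) and Taldo1 (-0.57).

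In mitochondria, 44 of 75 nuclear genes of the respiratory chain were higher and 0 lower (median 0.37), with Atp5k at 1.10 and Atp5g1 at 0.90. Of 22 genes of the tricarboxylic acid cycle 11 were higher and 1 lower (0.33), with Idh3a at 40.8 and 84.7 CPM (1.05) and Idh1 at -0.36. Of 24 genes of fatty acid oxidation 10 were higher and 1 lower (0.23), with Hadh at 1.03 and the acyl-CoA synthetase Acsl1 at -1.35. Of 13 mitochondrially encoded genes 8 were higher and 0 lower (0.38), led by mt-Nd4l (0.94) and mt-Co1 (0.91). The share of barcodes over the mitochondrial limit was 8.30% with deletion and chemotherapy and 1.83% with f/f PBS, and the median mitochondrial share of kept cells 3.64% and 2.60%. Whether this moves with the mitochondrial values was not tested.

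Over the whole libraries S phase genes were mostly higher and mitosis genes mostly near level. Of 31 S phase genes 25 were higher and 0 lower (median 0.56), among them the replication factor Mcm10 (0.94), cyclin Ccne1 (0.92) and the ribonucleotide reductase subunits Rrm1 (110 and 206 CPM, 0.91) and Rrm2 (142 and 251 CPM, 0.81). Of 29 mitosis genes 3 were higher and 6 lower (0.10), with Aurkb at 0.53 and Cenpf at -0.68. Within classes S phase genes had medians of 0.02 in neutrophil-like, 0.43 in monocyte-like and 1.82 in conventional dendritic cell-like cells. Mitosis genes had -0.11, 0.18 and 2.19 in the same order, and in conventional dendritic cell-like cells all 27 measured were higher. Among 15 measured G1 cyclins and inhibitors, cyclin Ccnd1 had 2.26 and 30.7 CPM (log2 3.76, 3.52 to 4.01) and Ccnd2 9.14 and 44.9 CPM (2.29). The third D cyclin, Ccnd3, had 294 and 207 CPM (-0.51). The inhibitor Cdkn1c had 43.7 and 14.2 CPM (-1.63), and Cdkn1a 31.4 and 97.5 CPM (1.64).

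Cdkn1a is also a target of p53, the factor that answers DNA damage. Of 23 measured p53 targets 11 were higher and 4 lower (median 0.26). The death effector Bax had 83.8 and 193 CPM (log2 1.21), Ccng1 27.3 and 56.3 CPM (1.04), and the nuclease Aen 19.9 and 39.8 CPM (0.996). Gadd45a went the other way at 56.3 and 23.2 CPM (-1.28), and Mdm2, the feedback inhibitor, had 52.7 and 48.6 CPM (-0.12). Phlda3, a p53-induced inhibitor of AKT, lies under 20 CPM and is named after its values were seen: it had 0.508 and 13.2 CPM (4.70, 4.204 to 5.25). Within classes the p53 list had medians of 0.82 in monocyte-like cells (6 of 8 higher), 0.78 in neutrophil-like cells (7 of 9 higher), 0.47 in conventional dendritic cell-like cells (5 of 9 higher) and -0.10 in T cell-like cells (1 of 6 higher). The p53 targets Ccng1 and Cdkn1a are among the leading genes of cluster 26, which holds 54 of the 280 neutrophil-like cells. These 54 cells are deep (median 28218 UMIs), so the p53 values of the class lean on a cluster with a weak name.

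Of 26 DNA repair genes 17 were higher and 1 lower (median 0.49). The abasic site endonuclease Apex1 had 43.7 and 108 CPM (log2 1.31) and Parp1 55.1 and 104 CPM (0.92), while the histone variant H2afx had 260.1 and 173 CPM (-0.59). Of 27 genes that handle cytarabine or anthracyclines 14 were higher and 2 lower (0.32). Nme1, a nucleoside diphosphate kinase, had 175 and 438 CPM (1.33), and the uptake carrier Slc22a4 had 23.03 and 12.1 CPM (-0.93).

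Secretory pathway chaperones were higher over the whole libraries. Of 20 genes of the unfolded protein and amino acid response 14 were higher and 0 lower (median 0.50). Sdf2l1 had 89.8 and 260 CPM (log2 1.53), Creld2 29.7 and 77.6 CPM (1.39), Manf 169 and 428 CPM (1.34) and the chaperone Hspa5 553 and 1280 CPM (1.21). The transcription factor Atf4 had 177 and 178 CPM (0.01), and Ddit3 25.4 and 26.6 CPM (0.07). Within classes the list had medians of 0.78 in neutrophil-like, 0.69 in monocyte-like and 0.96 in T cell-like cells. In conventional dendritic cell-like cells it went the other way (-0.22), with 2 of 15 members higher and 6 lower.

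Genes of antigen presentation were higher as well. Of 19 MHC class I genes 14 were higher and 2 lower (median 0.83). The non-classical H2-Q6 and H2-Q7 had 3.73 and 23.96 CPM (log2 2.69) and 9.10 and 45.1 CPM (2.31), and the classical H2-K1 263 and 709 CPM (1.43). The transporter Tap1 had 32.6 and 68.9 CPM (1.08) and the light chain B2m 494 and 788 CPM (0.67). H2-T23 went the other way at 75.5 and 52.2 CPM (-0.53). The H2-Q genes are close copies, and their reads may be split. Class I was higher within monocyte-like (0.78), neutrophil-like (0.69) and conventional dendritic cell-like cells (0.39), and lower in T cell-like cells (-0.39).

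Of 10 MHC class II genes 8 were higher and 0 lower (median 0.74), with H2-Eb1 at 20.4 and 53.2 CPM (log2 1.38) and the invariant chain Cd74 at 87.0 and 218 CPM (1.32). Conventional dendritic cell-like cells were 1.03% (0.831 to 1.27) and 5.14% (4.71 to 5.61) of the libraries, and these same genes named them. At a Leiden resolution of 0.5 the shares were 0.952% and 14.1%. Within them the list was lower (-0.88, 9 of 11 lower). Their cells lay mainly in cluster 16 with f/f PBS (85 of 89), and in clusters 16 and 21 with deletion and chemotherapy (295 and 191 of 486). Cluster 16 had 7 dendritic cell markers at least 2-fold higher than other cells, but also 8 macrophage and 9 monocyte markers. Its top 10 genes include C1qa and C1qb, and the 4 dendritic cell markers among them are H2-Eb1, H2-Aa, H2-Ab1 and Cd74. Its cells may thus be macrophages as well as dendritic cells, which was not tested. Of 35 interferon response genes 20 were higher and 3 lower (0.37), with Gbp7 at 9.24 and 26.7 CPM (1.53) and Ly6e at 603 and 1030 CPM (0.77), against Slfn2 at 128 and 70.2 CPM (-0.86). The list was lower within monocyte-like cells (-0.75, 9 of 12 lower) and higher within neutrophil-like cells (2.09, 6 of 7 higher), so a single direction over the library does not describe it.

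The single genes with the widest upward difference, outside these lists or leading them, were varied in kind. Ifitm1, an interferon-induced membrane protein, had 3.57 and 132 CPM, 37.0-fold (log2 5.21, 5.02 to 5.40). Gdf3, a secreted ligand related to TGF-beta, had 2.14 and 51.6 CPM (4.59), and the metallothionein Mt2 2.14 and 50.8 CPM (4.57). Fabp5, a fatty acid carrier, had 14.7 and 137 CPM (3.22), and the kinase Pim1, a target of STAT signalling, 36.5 and 262 CPM (2.84). Bcl11a had 4.13 and 25.4 CPM (2.62), the lectin Clec10a 2.40 and 20.8 CPM (3.12), and Serpina3g 2.80 and 27.97 CPM (3.32). The other genes of this rank were Fkbp11, Hmgn3, Emp1 and Endod1, at 52.5, 23.1, 24.6 and 21.8 CPM with deletion and chemotherapy and 3.05 to 6.91 CPM with f/f PBS.

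These genes were not spread alike over cells. Ifitm1 had 13669 UMIs in 2237 deleted chemotherapy cells and 232 UMIs in 125 f/f PBS cells, and its within-class log2 ratio was 5.17 in monocyte-like and 7.79 in neutrophil-like cells. Gdf3 UMIs were in 3166 deleted chemotherapy cells and 98 f/f PBS cells. Thinned to 2000 UMIs, 12.97% and 0.704% of the cells that reached this depth held an Ifitm1 UMI, against 4.57% and 0 of 56 T cell-like cells. For Gdf3 the shares were 8.99% and 0.252%, against 1.71% and 0 of 56. Unthinned, the shares over all cells were 23.7% and 1.45% for Ifitm1 and 33.5% and 1.14% for Gdf3. Serpina3g changed sign with the class: it was higher in monocyte-like cells (5.26) and lower in T cell-like cells, at 404 and 150 CPM (-1.44, -1.81 to -1.05).

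At the lower end, besides granule genes and stefins, Plbd1, a phospholipase-like protein of granulocytes, had 77.4 and 3.23 CPM (log2 -4.58). Orm1, an acute-phase glycoprotein that is also in the secondary and tertiary granule list, had 20.4 and 1.32 CPM (-3.95). Tinagl1 had 33.6 and 2.41 CPM (-3.80). Amer2 had 21.7 and 1.85 CPM (-3.55), the kinase Dapk2 26.1 and 2.55 CPM (-3.36), and the complement receptor C5ar1 41.7 and 4.64 CPM (-3.17). Another 11 genes within these ranks, 8 lower and 3 higher, are haemoglobin or immunoglobulin genes or gene models known by a code.

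The MLL-AF9 programme itself was mixed. Of 24 measured genes 6 were higher and 8 lower (median -0.00). Hoxa9 had 209 and 208 CPM (log2 -0.01), Myb 314 and 319 CPM (0.03) and Meis1 101.4 and 78.1 CPM (-0.38). Bcl2 had 31.8 and 58.4 CPM (0.88) and Mef2c 542 and 710.0 CPM (0.39). Pbx3, a partner of HOX proteins, was the widest exception at 49.6 and 7.68 CPM (-2.69, -2.80 to -2.58), followed by Kmt2a, which encodes MLL, at 534 and 226 CPM (-1.24). Stem and progenitor genes were likewise split, with 8 of 21 higher and 9 lower (-0.08). Sox4 had 23.6 and 60.5 CPM (1.35) and Mecom 41.2 and 71.5 CPM (0.80), while Kit had 39.4 and 17.6 CPM (-1.16), Adgrl4 24.7 and 4.85 CPM (-2.35) and Cd34 31.9 and 19.2 CPM (-0.73).

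Lymphoid cells made up more of the deleted chemotherapy library. B cell-like cells were 36 of 8614 (0.418%, 0.293 to 0.578) and 432 of 9446 (4.57%, 4.16 to 5.01). They were not the same stage. In the f/f PBS library 25 of the 36 lay in cluster 27, whose leading genes include the precursor genes Vpreb3 and Rag1. It held 0 cells of the other library. All 432 in the deleted chemotherapy library lay in cluster 14, whose leading genes include the mature B cell genes Ms4a1 and Fcer2a. It held 11 f/f PBS cells. Ebf1 was among the leading genes of both clusters. Plasma cell-like cells were 12 (0.139%, 0.0720 to 0.243) and 45 (0.476%, 0.348 to 0.637). Shares within a library do not give numbers of cells in the marrow.

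T cell-like cells, all of cluster 18, were 66 of 8614 (0.766%, 0.593 to 0.974) and 245 of 9446 (2.59%, 2.28 to 2.94). Of 14 measured T and NK effector genes in them 1 was higher and 13 lower with deletion and chemotherapy (median -1.49), while 3311 genes in the class had a median of -0.01. The chemokine Ccl5 had 8777 and 2771 CPM (log2 -1.66, -1.75 to -1.58) and the granule protein Nkg7 1704 and 843 CPM (-1.02, -1.19 to -0.84). The T cell marker list was lower in the same cells, with 9 of 11 members lower and 1 higher (-0.81), so the drop is not shown to be particular to effector genes. Of 9 NK cell markers 8 were lower and 1 higher (-1.29), but all of them are also in the effector list, and the part of NK cells in the cluster was not tested. The co-receptor Cd8a had 142 CPM (97.7 to 199) and 207 CPM (180 to 237), and Cd4 38.7 CPM (17.7 to 73.5) and 19.5 CPM (11.9 to 30.2). All 16 measured mitosis genes were higher in these T cell-like cells (median 2.05), as were 14 of 16 S phase genes (1.08). The counts are small and 7 of 8 granulocyte-monocyte progenitor markers were also higher there (4.57). As for Camp, the part of other cells' RNA in these values was not tested.

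Signs of other cell types differed too. Haemoglobin genes were lower, with Hbb-bs at 465 and 25.6 CPM, and 6 of 7 erythroid markers were lower and 1 higher. In the f/f PBS library 10 cells held 55.3% of the Hbb-bs UMIs. All 3 measured eosinophil markers were lower, with Siglecf at 25.4 and 5.07 CPM (log2 -2.33). All 3 measured stromal markers were higher, among them Col1a1 at 0.908 and 11.3 CPM. Erythroid, stromal and megakaryocyte markers led 1 mixed cluster, number 23, of 36 and 65 cells. The Y-linked genes Ddx3y (47.7 and 44.6 CPM), Eif2s3y (58.7 and 47.9 CPM), Kdm5d (12.2 and 11.1 CPM) and Uty (13.6 and 13.1 CPM) were present in both libraries, and Xist had 4.39 and 9.62 CPM.

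The other 2 MA9 libraries share no library with the pair. Set in the order labelled Δ/Δ PBS over labelled f/f AraC + Dox, they have the same genotype order in their labels and the opposite drug order, and Ptpn6 goes against that genotype order (172 against 57.7 CPM). Their deposited matrices carry the tags WC and KO, which the labels do not explain. Whether the labels of these 2 libraries were exchanged was not tested, and an exchange would turn both orders and so what the shares below compare. Of the 310 genes higher in the pair, 298 (96.1%) were higher in this order too and 148 passed 2-fold. Of the 344 lower genes 320 (93.02%) were lower and 151 passed 2-fold. Of all 6110 genes compared, 59.7% were higher in this order, 4.19% passed 2-fold upward and 3.45% downward. Across those genes the ratios had a Pearson r of 0.689 and a Spearman rho of 0.722, as a description, since genes are not replicates and each axis is 1 pair of libraries.

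**Figure D4:**
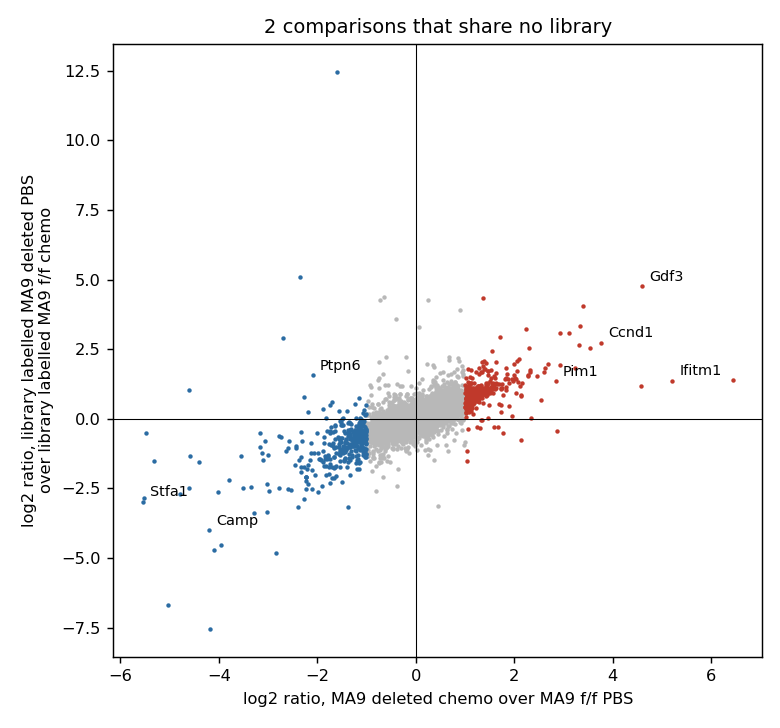
Log2 ratio of the pair (x) against the log2 ratio of the other 2 MA9 libraries in the order labelled Δ/Δ PBS over labelled f/f AraC + Dox (y), for 6110 genes. Most red (310 higher) and blue (344 lower) genes keep their sign, while Ptpn6 at -2.09 and 1.58 does not. The topmost point is Ighg2c, at 0 UMIs in the library labelled f/f AraC + Dox and set there to a floor of 3 UMIs, so its height is a lower bound.

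Many named genes showed this order gene by gene. Phlda3 had 13.3 CPM in the first of these libraries and 0.513 CPM in the second, and Cdkn1a 98.3 and 40.4 CPM. Srm had 149.5 and 55.3 CPM there, Phgdh 52.9 and 9.11 CPM, and Ccnd1 25.3 and 3.82 CPM. Camp had 1170 and 18685 CPM, and Lyz2 435 and 2420 CPM. For these 7 genes the library labelled Δ/Δ PBS stood near the deleted chemotherapy library and the library labelled f/f AraC + Dox near f/f PBS. As lists, ribosome biogenesis had 32 of 32 members higher in that order (median 1.05), MHC class I 19 of 19 (0.83) and secondary granules 23 of 25 lower (-1.52). These counts are of members at least 25% higher or lower. The share of all genes past 25% was not counted in that order, where the 6110 genes had a median of 0.09. Other lists did not follow the pair. Primary granules had a median of -0.01 (5 of 16 higher, 5 lower) against 0.72, and glycolysis -0.01 against 0.31. Haematopoietic stem and progenitor markers had 3.65 (10 of 10 higher) against -0.23, and eosinophil markers 1.22 against -2.60.

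Of the 310 and 344 genes past 2-fold in the pair, 7 were past 2-fold in the opposite direction in the other 2 libraries, and they are named here after their values were seen. Ptpn6 is 1 of them. Pbx3 had 49.6, 78.8, 10.5 and 7.68 CPM with the order of libraries f/f PBS, labelled Δ/Δ PBS, labelled f/f with drugs, and deleted chemotherapy, in which Ptpn6 had 186, 172, 57.7 and 43.6 CPM. So both Pbx3 and Ptpn6 were high in the same 2 libraries. Adgrl4 had 24.7, 63.2, 1.84 and 4.85 CPM in that order. The others were 1700006J14Rik (82.8, 21.1, 10.3 and 3.40 CPM), the immunoglobulin gene Ighg2c (61.7, 206, 0 and 20.4 CPM), Lmo1 (16.2, 18.6, 41.9 and 33.5 CPM) and Lipg (28.6, 13.6, 38.4 and 58.6 CPM). Pfkp stood at 32.1, 45.02, 39.0 and 63.1 CPM in the same order, and its highest level was in the deleted chemotherapy library.

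**Figure D5:**
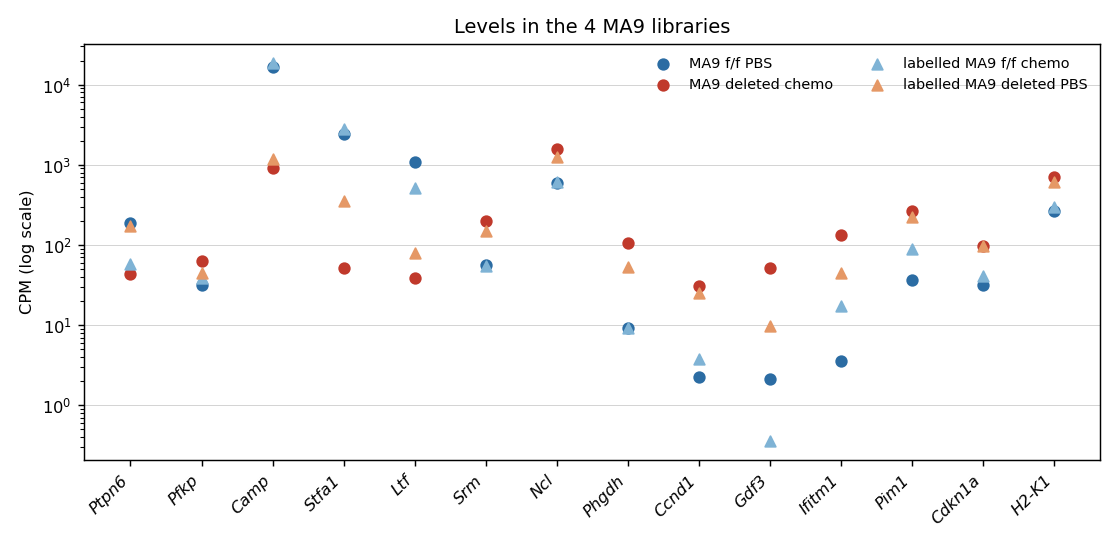
CPM on a log scale of 14 genes in the 4 MA9 libraries, circles for the pair and triangles for the 2 libraries whose labels go against Ptpn6. For Camp, Srm, Phgdh, Ccnd1 and Cdkn1a the library labelled deleted PBS lies near the deleted chemotherapy library, and for Ptpn6 it lies near f/f PBS (172 and 186 CPM).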

How the data were processed

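Droplet 3′ single-cell RNA libraries were read from the deposited matrices, whole-number UMI counts for each gene in each barcode, which the authors left unnormalised. Alignment used Cell Ranger 3.0.2 and mm10, per the submitters' processing notes. The kit is given as v2, per the labels' protocols. Counting settings such as strand are not given in the sources used here. All 31053 features were read, and positions came from GENCODE vM21. Barcodes were filtered and UMIs summed with Python 3.11.15, numpy 2.4.6 and scipy 1.17.1. Each log2 ratio has an exact interval, by the Clopper-Pearson method, from a gene's 2 counts given their total. Single-cell levels have exact Poisson intervals and shares exact binomial intervals. Depths of 64966638 and 103581646 UMIs limit only the counting error. The ratio code was tested on simulated data.

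Both libraries were clustered with 2000 variable genes, 30 principal components, 15 neighbours and Leiden resolution 1 (leidenalg 0.10.2), with no batch correction, and list genes other than markers left out. A class needed 3 markers, and within-class ratios needed 50 cells in each library. Scrublet in scanpy 1.11.5 marked 370 f/f PBS cells. Its automatic threshold marked 0 cells of the other library, so the same threshold was used there and marked 380. Doublets were kept, and removed as an alternative.

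Named genes are Ptpn6, Pfkp, the 15 highest and 15 lowest ratios at 20 CPM or more whose interval excludes 0, up to 8 members at 20 CPM or more per list with the largest difference or against the list, and marker and sex-linked genes. Genes known only by a code, and those for haemoglobin, antigen receptors, ribosomal proteins, mitochondria or sex chromosomes, are counted, not ranked. Hp, Cst7, Cebpa, Spi1, Ptpn11, Ncl, Mdm2, Phlda3, Atf4, Ddit3, B2m, Hoxa9, Myb and Mef2c lie outside this rule and were chosen after their values were seen, as were genes named as leading a cluster. Members and lists were chosen with earlier results of these data known. The comparison with the other 2 MA9 libraries, the levels by class and the promoter search were added after seeing the data.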

Additional observations from a re-analysis of the deposited data

How the results depend on the processing

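No paired analysis was possible because each group has 1 library, and no library could be left out. Another level or fold changed the main counts (genes 2-fold higher and genes 2-fold lower): 552 and 563 at 5 CPM, 173 and 190 at 50 CPM, 2247 and 3071 with no minimum, 1001 and 794 at 1.5-fold, and 39 and 70 at 4-fold. Other scalings, filters and weights kept both counts within 1.5 times, at 264 to 464 higher and 332 to 483 lower, and the median of all genes moved between -0.05 (totals without the most abundant genes) and 0.15 (mean of per-cell CPM). The log2 ratio of Ptpn6 was -2.15 with median-of-ratios scaling, -2.19 without the most abundant genes, -2.15 with at least 1000 genes per barcode, -1.77 as a mean of per-cell CPM, -2.22 thinned to 2000 UMIs and -2.20 in myeloid and progenitor cells only. That of Pfkp was 0.87 without the most abundant genes, 1.06 as a mean of per-cell CPM and 1.11 thinned, so it passes 2-fold in the last 2. Jchain, at 0.69 over all cells, was -1.42 in myeloid and progenitor cells only, Pf4 was -0.14 at a mitochondrial limit of 5%, and the median of checkpoint ligands was 0.076 as a mean of per-cell CPM. Macrophage-like shares were 0.372% and 1.13% at a Leiden resolution of 0.5 and 0.372% and 1.14% at 1.5. Neutrophil-like shares were 62.2% and 8.68% at 0.5, and that of the deleted chemotherapy library was 3.68% at 1.5 and 3.59% with doublets removed. Where clusters were drawn moved other shares, given here for f/f PBS and then deleted chemotherapy. At a resolution of 0.5, monocyte-like cells were 28.98% and 6.37%, granulocyte-monocyte progenitor-like cells 0.221% and 25.1%, conventional dendritic cell-like cells 0.952% and 14.1%, and unnamed cells 5.56% and 36.2%. Stem and progenitor-like cells had no cluster at 0.5 and were 6.87% and 20.9% at 1.5, then 17.6% and 19.7% with doublets removed. Monocyte-like cells of the f/f PBS library were 3.94% at 1.5 and 4.1% with doublets removed. Unnamed cells were 32.5% and 33.3% at 1.5, and 23.8% and 33.3% with doublets removed. B cell-like, T cell-like and plasma cell-like shares stayed within their counting intervals under these 3 settings. The cause of these shifts was not tested. Depth limits rare classes: Ptpn6 in T cell-like cells of the f/f PBS library rests on 18 UMIs.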

Other observations

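Plasma cell-like cells differed in the immunoglobulin genes they carried, and a few cells held most of the UMIs. The light chain gene Iglc1, named here after its values were seen, had 3.22 CPM with f/f PBS and 279 CPM with deletion and chemotherapy (log2 6.44), the widest ratio of all genes compared. Of its 28934 UMIs in the second library, 96.7% were in 45 plasma cell-like cells, 22.1% in 1 cell and 96.3% in 10 cells. Ighg2b went the other way at 39.0 and 0.869 CPM, and 1 cell of the f/f PBS library held 2482 of its 2532 UMIs. Prss34, a basophil protease, had 428 UMIs with f/f PBS, 401 of them in 1 cell, and 1 UMI with deletion and chemotherapy. The differences in Ighg2b and Prss34 rest on single cells, and that in Iglc1 mostly on 10 cells. Mcpt8, another basophil protease, had 582 UMIs, 249 of them in 1 cell, and 2774 UMIs over 1647 cells, of which 1106 were in granulocyte-monocyte progenitor-like cells.

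Phlda3 was not alike in all classes of the deleted chemotherapy library. It had 47.5 CPM (43.3 to 52.0) in monocyte-like cells, 33.6 CPM (26.8 to 41.6) in neutrophil-like cells, 24.8 CPM (19.1 to 31.6) in conventional dendritic cell-like cells and 3.63 CPM (2.996 to 4.36) in those like granulocyte-monocyte progenitors. The 245 T cell-like cells had 8.80 CPM (4.02 to 16.7), close to 8.61 CPM (1.04 to 31.1) in those of the f/f PBS library, and in 432 B cell-like cells 0 UMIs. In neutrophil-like cells of the f/f PBS library it had 0.107 CPM (0.0222 to 0.314).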
